A study of Mus musculus with 10 samples.

Results

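Short gaps are the stretches of at most 1000 bp that separate neighbouring protein-coding genes which do not overlap. They were chosen by position alone, from the RefSeq gene table of mouse assembly GRCm38.p6 on the 17 autosomes other than 8 and 11, which were not analysed here. There were 1633 short gaps among 16199 gaps of any length, and each was studied with 500 bp of flank on either side. They separated 2967 distinct genes, 299 of which lay at 2 gaps, and in 8 pairs of gaps the flanked regions overlapped. Gap length ran from 1 to 999 bp with a median of 248 bp. Where the RefSeq promoter table gave the strand of both genes, 468 gaps were divergent (both genes start at the gap), 365 were tandem (1 starts and the other stops there) and 351 were convergent (both stop there). The other 449 gaps, including all 22 on chromosome 18, lacked the strand of at least 1 gene, so their orientation is unknown. For comparison, 15380 single gene ends had no other gene end within 5 kb, and each was given a region of 1248 bp, the median width of the gap regions. Of these, 6061 were starts, 6194 were stops and 3125 had no strand.

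The peaks came from HA-tagged SET, a histone-binding chaperone and phosphatase inhibitor made as the isoforms SETα and SETβ, in KH2 cells, mouse embryonic stem cells with a docking site for a doxycycline-driven transgene. Per the labels, 4 lines were used: SET KO cells with HA-SETα or HA-SETβ (here SETα and SETβ addback) and cells with endogenous SET that carried the same transgenes (SETα and SETβ overexpression), each with 2 replicates. All were grown on feeder cells that were removed before harvest, received doxycycline at 1 µg/ml over 24 h, and were fixed first with DSG, which links proteins to each other, and then with formaldehyde. Chromatin was precipitated with an HA antibody. Each group is a line of its own, nothing states that its replicates are separate cultures, and the 2 samples of SET KO cells left without doxycycline were not used here, so no untagged background stands beside any value. Addback libraries held 2518 to 22176 peaks and overexpression libraries 1343 to 7675. A list per group also held the peaks that ranked alike in both replicates at the authors' irreproducible discovery rate (IDR), with 485 to 530 peaks in addback and no more than 127 in overexpression.

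Genes that start close together on opposite strands share what is called a bidirectional promoter. Such promoters are usually rich in CpG and poor in TATA boxes, hold sites for ETS-family factors, NF-Y, NRF1 or YY1, and often serve housekeeping genes of DNA repair, mitochondria, translation and RNA processing. In a tandem gap the downstream gene's promoter sits against the end of its neighbour, and a convergent gap holds polyadenylation sites but no coding-gene promoter.

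The following start windows are shown because they hold the 5 divergent gaps and the tandem gap with the strongest addback peaks, and, last, a widely studied divergent gap at which no library listed a peak. Each window is the RefSeq promoter window (GRCm38.p6, minus strand) of the first gene named, 250 bases before its start to 50 after it, and the capitals mark the gap itself. The windows are chr10:75517923-75518222 (Gucd1/Snrpd3), chr1:37890362-37890661 (Mitd1/Mrpl30), chr2:125859033-125859332 (Cops2/Galk2), chr5:100798551-100798850 (Helq/Mrps18c), chr13:99344629-99344928 (Ptcd2/Mrps27), chr17:24073436-24073735 (Kctd5/Pdpk1) and chr9:53536622-53536921 (Atm/Npat).
Gucd1/Snrpd3: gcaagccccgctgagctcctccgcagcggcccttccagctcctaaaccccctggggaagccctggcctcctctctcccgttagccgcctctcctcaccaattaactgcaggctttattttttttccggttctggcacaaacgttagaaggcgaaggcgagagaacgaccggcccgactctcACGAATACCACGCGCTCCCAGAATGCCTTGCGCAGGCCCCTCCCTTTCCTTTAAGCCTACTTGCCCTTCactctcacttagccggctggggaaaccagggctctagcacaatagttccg
Mitd1/Mrpl30: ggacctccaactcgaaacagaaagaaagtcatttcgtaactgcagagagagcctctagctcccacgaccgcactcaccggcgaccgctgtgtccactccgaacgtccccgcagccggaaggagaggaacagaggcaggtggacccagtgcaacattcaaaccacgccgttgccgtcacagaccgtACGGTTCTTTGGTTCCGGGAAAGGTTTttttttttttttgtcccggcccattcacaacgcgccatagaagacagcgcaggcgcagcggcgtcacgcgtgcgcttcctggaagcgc
Cops2/Galk2: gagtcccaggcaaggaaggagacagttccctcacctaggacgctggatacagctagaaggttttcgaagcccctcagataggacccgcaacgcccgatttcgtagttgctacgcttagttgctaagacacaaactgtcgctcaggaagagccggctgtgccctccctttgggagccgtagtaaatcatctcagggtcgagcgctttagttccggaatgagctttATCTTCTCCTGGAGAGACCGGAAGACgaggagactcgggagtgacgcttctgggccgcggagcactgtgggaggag
Helq/Mrps18c: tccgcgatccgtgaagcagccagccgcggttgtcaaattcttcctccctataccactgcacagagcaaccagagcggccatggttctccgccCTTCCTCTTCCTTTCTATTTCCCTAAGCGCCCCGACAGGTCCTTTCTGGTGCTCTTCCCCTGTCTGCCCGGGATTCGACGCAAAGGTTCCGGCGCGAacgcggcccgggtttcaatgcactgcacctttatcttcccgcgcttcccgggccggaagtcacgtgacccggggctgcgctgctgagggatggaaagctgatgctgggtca
Ptcd2/Mrps27: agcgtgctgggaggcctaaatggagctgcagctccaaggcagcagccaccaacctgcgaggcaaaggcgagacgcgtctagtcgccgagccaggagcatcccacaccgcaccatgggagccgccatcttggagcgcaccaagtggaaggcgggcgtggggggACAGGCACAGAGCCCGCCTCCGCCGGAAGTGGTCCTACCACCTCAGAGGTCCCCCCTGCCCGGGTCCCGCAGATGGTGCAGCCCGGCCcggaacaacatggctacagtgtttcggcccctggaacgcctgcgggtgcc
Kctd5/Pdpk1: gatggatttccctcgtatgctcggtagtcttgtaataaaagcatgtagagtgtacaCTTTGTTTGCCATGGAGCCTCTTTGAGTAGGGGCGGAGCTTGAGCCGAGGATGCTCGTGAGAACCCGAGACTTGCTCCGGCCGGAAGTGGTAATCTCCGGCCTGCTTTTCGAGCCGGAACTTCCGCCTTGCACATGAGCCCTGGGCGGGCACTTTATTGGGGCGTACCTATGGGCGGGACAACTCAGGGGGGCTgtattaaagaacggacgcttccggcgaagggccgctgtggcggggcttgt
Atm/Npat: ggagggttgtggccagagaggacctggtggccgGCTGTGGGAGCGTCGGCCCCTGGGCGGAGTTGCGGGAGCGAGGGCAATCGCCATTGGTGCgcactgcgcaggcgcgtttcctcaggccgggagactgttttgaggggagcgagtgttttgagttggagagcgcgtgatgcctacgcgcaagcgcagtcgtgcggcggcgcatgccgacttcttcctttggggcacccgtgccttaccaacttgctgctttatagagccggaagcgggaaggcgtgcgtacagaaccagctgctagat
Counting from 1 at the left of each line, the letters CCGGAAG or their reverse complement, the core bound by ETS factors, begin at base 114 for Mitd1/Mrpl30, at base 242 for Cops2/Galk2 and again at base 242 for Helq/Mrps18c. They begin at base 185 for Ptcd2/Mrps27 and at base 260 for Atm/Npat, and at bases 137 and 268 for Kctd5/Pdpk1. In the Gucd1/Snrpd3 window these letters were not found. In the Ptcd2/Mrps27 window the reverse complement of the YY1 letters AAGATGGCG begins at base 121. The letters CCAAT begin at base 97 for Gucd1/Snrpd3, and their reverse complement ATTGG begins at base 212 for Kctd5/Pdpk1 and at base 86 for Atm/Npat. The Atm/Npat window also holds the reverse complements of GCATGCGC, the letters searched for NRF1, and of TATAAA, those searched for the TATA box. All 7 windows were rich in CpG, with an observed over expected CpG ratio from 0.634 (Ptcd2/Mrps27) to 1.12 (Mitd1/Mrpl30).

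The first comparison asked whether short gaps held a peak more often than single gene ends. In SET KO cells they did. SETα addback libraries had a peak at 36.3% and 34.8% of short gaps, against 14.6% and 13.2% of single ends. SETβ addback libraries had one at 9.74% and 19.9% of gaps, against 3.19% and 6.76% of single ends. The gap share was the higher in each addback library, by 6.55 to 21.7 percentage points. Over all 36020 ends of coding genes the shares were 17.3% and 16% in SETα addback and 4.02% and 8.53% in SETβ addback, so the gaps lay above this background too. In SET wild type cells few gaps had a peak. SETα overexpression libraries had one at 1.04% and 1.96% of gaps, against 0.624% and 1.05% of single ends and 0.627% and 1.09% of all coding gene ends. SETβ overexpression libraries had one at 0.612% and 1.90% of gaps, against 0.0845% and 0.553% of single ends and 0.175% and 0.802% of all coding gene ends.

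The excess of gaps over single ends was 15.7 ± 7.32 percentage points in SET KO (SD, n = 4 libraries) and 0.801 ± 0.421 in SET wild type (SD, n = 4 libraries). Over the 8 libraries its mean was 8.27 points and it was above 0 in 8 of 8 (exact two-sided sign-flip permutation test over libraries, p = 0.00781, the smallest that 8 libraries allow; Benjamini-Hochberg p over 7 tests = 0.0182). Without chromosome 6 the mean was 8.21 points (exact permutation p = 0.0156), but SETα overexpression replicate 1 then had no gap with a peak, against 0.00698% of single ends, so its excess was below 0, and replicate 2 had a peak at 0.709% of gaps in place of 1.96%. The sign in the first of these libraries thus rests on chromosome 6. With equal numbers of strongest peaks from each library the mean excess was 2.96 points in place of 8.27 (exact permutation p = 0.00781). Counting only peaks with a −log10 q of at least 5 gave a mean excess of 2.01 points and an exact permutation p of 0.0625, since 3 of the overexpression libraries then had no peak at any gap or single end. At that threshold the excess was still above 0 in each addback library, with such peaks at 6.18% and 6.55% of gaps in SETα addback and at 3.67% and 3.86% in SETβ addback.

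Orientation separated the gaps. Divergent gaps held a peak in 58.1% and 60.5% of cases in SETα addback and in 17.9% and 34.6% in SETβ addback. The Wilson 95% intervals, which cover counting error only, were 53.6% to 62.5%, 56.0% to 64.8%, 14.7% to 21.7% and 30.4% to 39.0%. Single starts held one in 27.9% and 25.4% of cases in SETα addback and in 6.55% and 13.3% in SETβ addback. Divergent gaps thus exceeded single starts by 30.3 and 35.1 points with SETα and by 11.4 and 21.3 points with SETβ. In overexpression libraries divergent gaps held a peak in 0.855% and 1.50% of cases with SETα and in 1.28% and 3.21% with SETβ. The excess over single starts was 24.5 ± 10.5 points in SET KO (SD, n = 4) and 0.818 ± 0.951 in SET wild type (SD, n = 4), where the spread was larger than the mean. It was above 0 in 8 of 8 libraries, with a mean of 12.7 points (exact sign-flip permutation test, p = 0.00781; Benjamini-Hochberg p = 0.0182). With peaks of −log10 q of at least 5 it was 3.39 points (exact permutation p = 0.0625), and with equal numbers of strongest peaks 5.03 points (exact permutation p = 0.00781).

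**Figure D1:**
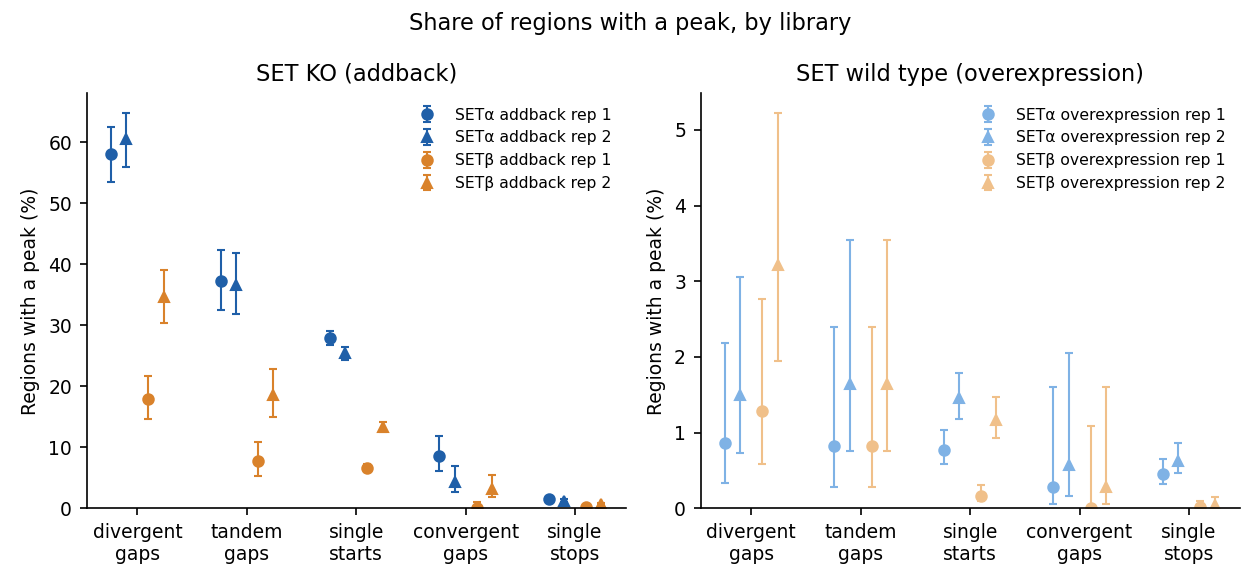
Percent of regions with at least 1 peak (vertical axis, which differs between panels) for each class of region, in the 4 addback libraries (left) and the 4 overexpression libraries (right). Points are libraries, circles replicate 1 and triangles replicate 2, and bars are Wilson 95% intervals of counting error. In each addback library divergent gaps lie highest, from 17.9% to 60.5%, and convergent gaps and single stops lowest, at 8.55% or less.

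Tandem gaps held a single start, as isolated starts do, and in the addback libraries lay between them and divergent gaps. SETα addback libraries had a peak at 37.3% and 36.7% of tandem gaps and SETβ addback libraries at 7.67% and 18.6%. The excess over single starts was 9.41, 11.4, 1.12 and 5.30 points in these libraries, so SETβ addback replicate 1 was the lowest. It was 6.80 ± 4.55 points in SET KO (SD, n = 4) and 0.342 ± 0.274 in SET wild type (SD, n = 4). All 8 libraries were above 0, with a mean of 3.57 points (exact sign-flip permutation test, p = 0.00781; Benjamini-Hochberg p = 0.0182). The tandem call was lost under 4 settings: the mean was 0.762 points (exact permutation p = 0.125) at a −log10 q of at least 5, and it was 2.70 points with peaks of q of at most 0.05, 1.11 with equal numbers of strongest peaks and 3.83 with gaps of at most 500 bp, and for the last 3 settings the exact permutation p was 0.0625, 0.0547 and 0.0859. Tandem regions were also wider, with a median of 1434 bp against 1248 bp for single starts, whereas divergent regions were narrower, at 1103 bp.

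Convergent gaps rarely held a peak. SETα addback libraries had one at 8.55% and 4.27% of them and SETβ addback libraries at 0% and 3.13%, against 1.50%, 1.21%, 0.113% and 0.630% of single stops. The excess was 3.12 ± 2.96 points in SET KO (SD, n = 4) and −0.00167 ± 0.171 in SET wild type (SD, n = 4). It was above 0 in 4 of 8 libraries and did not pass the test (mean 1.56 points, exact sign-flip permutation test, p = 0.164, Benjamini-Hochberg p = 0.191). Without SETα addback replicate 1 the mean was 0.778 points, and with gaps of at most 500 bp it was 1.59 points (exact permutation p = 0.0469). An annotated start of any gene with a strand lay in 5 of the 351 convergent regions, and the shares over the other 346 were 8.38%, 4.05%, 0% and 3.18%. No convergent gap had a peak in all 4 addback libraries, and 2 had one in 3.

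A divergent gap holds 2 starts, so its share was also set beside the share that 2 single starts would reach if each had a peak on its own. The widths are unlike: each single start has a region of 1248 bp, whereas both starts of a divergent gap share a region with a median of 1103 bp. That share was 47.9% and 44.3% for SETα addback and 12.7% and 24.9% for SETβ addback. Divergent gaps lay above it by 10.2, 16.2, 5.28 and 9.73 points, a mean of 10.3 ± 4.48 (SD, n = 4). In SET wild type the difference was −0.0622 ± 1.16 points (SD, n = 4), below 0 in both SETα libraries and above 0 in both SETβ libraries. Over 8 libraries the mean of 5.14 points did not pass the test (above 0 in 6 of 8, exact sign-flip permutation test, p = 0.0703; Benjamini-Hochberg p = 0.0984). Without SETα overexpression replicate 2 the mean was 6.07 points, with an exact permutation p of 0.0312. Among starts rich in CpG the difference turned to −5.07 points, and was negative in all 4 addback libraries, from −17.3 to −5.20 (exact sign-flip permutation test over 8 libraries, p = 0.0547).

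CpG content moved with these shares. The 834 start windows matched to divergent gaps had a median observed over expected CpG ratio of 0.853, and 89.2% of them reached 0.6. Of the 271 matched tandem windows 55.4% reached it (median 0.640), and of the 4816 windows of single starts 47.8% (median 0.572). At ratios under 0.4 the mean share over the 4 addback libraries was 10.0% for divergent gaps, of which only 10 fell in this class, 9.25% for tandem gaps and 2.48% for single starts. At 0.4 to 0.6 it was 35.4%, 23.4% and 17.3% for the same kinds of region, and in points divergent gaps and single starts lay farthest apart there. At 0.6 to 0.8 it was 46.3%, 37.3% and 30.5%. At 0.8 and over it was 44.7%, 41.4% and 37.7%. All 3 kinds of region thus held a peak more often at CpG-rich starts.

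**Figure D2:**
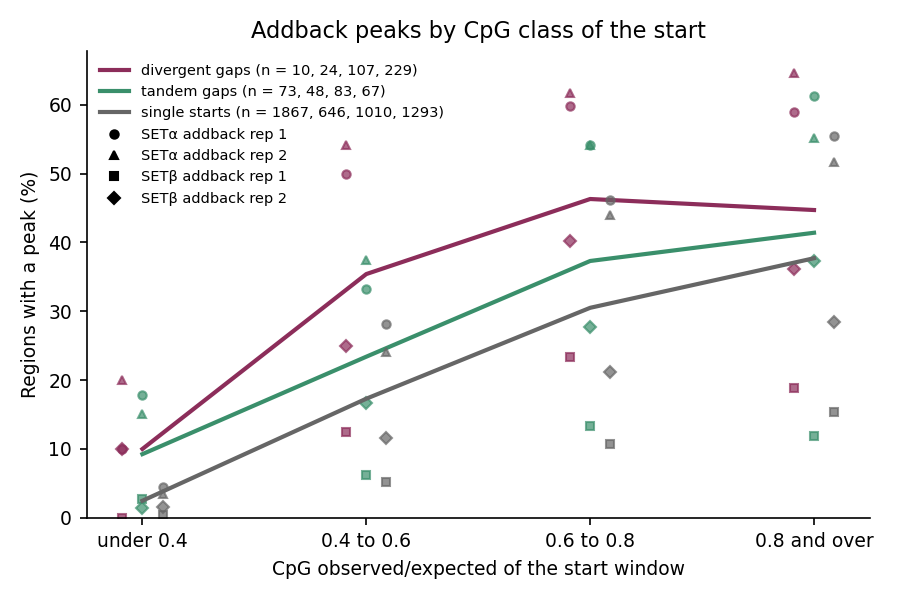
Percent of regions with a peak (vertical axis) by class of CpG observed over expected ratio of the 300-base start window (horizontal axis), with 1 point per addback library and lines through the mean of 4 libraries; the numbers of regions are in the key. The 3 lines rise from 10.0%, 9.25% and 2.48% to 44.7%, 41.4% and 37.7%, and divergent gaps stay above single starts.

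The tests on CpG-rich starts asked for a ratio of at least 0.6 at both starts of a divergent gap, whereas the classes above used the mean of both. Within such starts, which left 320 divergent gaps, 150 tandem gaps and 2303 single starts, the excess of divergent gaps over single starts was 10.0 ± 3.73 points in SET KO (SD, n = 4), against 24.5 points over all. It was 7.69 and 14.5 points with SETα and 6.36 and 11.6 with SETβ. Over the 8 libraries its mean was 5.52 points, above 0 in 8 of 8 (exact sign-flip permutation test, p = 0.00781). For tandem gaps the excess was 4.60 ± 3.53 points in SET KO (SD, n = 4) and turned to −0.664 in SETβ addback replicate 1 (mean over 8 libraries 2.66, exact sign-flip permutation test, p = 0.0312). The tandem test and that against 2 independent starts on CpG-rich starts were added after the data were seen. None of the 3 tests on CpG-rich starts is among the 7 adjusted tests.

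Divergent gaps showed no steady course with gap length. Over the 4 addback libraries the mean share of divergent gaps with a peak was 43.8% at lengths up to 100 bp, 40.0% above that and up to 250 bp, 41.9% up to 500 bp and 48.6% up to 1000 bp. Single libraries varied more: SETβ addback replicate 2 ran from 26.8% in the second of these classes to 48.6% in the last, and replicate 1 from 13.2% in the third to 25.7% in the last, which holds 35 gaps. Tandem gaps had 19.3%, 31.1%, 25.3% and 24.2% in the same classes, and convergent gaps between 2.97% and 4.55%. Over all orientations the share declined with length, from 32.9% to 27.3%, 21.4% and 18.8%, while the median length was 103 bp for divergent, 434 bp for tandem and 383 bp for convergent gaps. At the edge of the rule, the gaps within 250 bp below the limit of 1000 bp had 16.1%, and those within 250 bp above it, which are no members, had 17.1%.

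The difference between isoforms did not pass the test. SETα libraries exceeded SETβ libraries by 5.76 points, averaged over both backgrounds, but the direction was not the same in both (exact permutation test within backgrounds, p = 0.278; Benjamini-Hochberg p = 0.278; the smallest p that 36 arrangements allow is 0.0556). In addback the excess was 21.6 and 21.7 points with SETα against 6.55 and 13.1 with SETβ, and in overexpression 0.417 and 0.913 with SETα against 0.528 and 1.35 with SETβ, where the values overlapped and the SETα mean was the lower. With peaks of q of at most 0.05 the difference was 6.03 points (exact permutation p = 0.0556). With equal numbers of strongest peaks from each library the difference was 0.375 points (exact permutation p = 0.389), and with peaks of −log10 q of at least 5 it was 1.11 (exact permutation p = 0.167). As a ratio of gaps to single ends the direction turned: the ratio was 2.47 and 2.65 in SETα addback, 3.06 and 2.94 in SETβ addback, 1.67 and 1.87 in SETα overexpression, and 7.24 and 3.43 in SETβ overexpression. The SETα ratios lay below the SETβ ratios in both backgrounds without overlap, a log2 difference of −0.863 (p = 0.0556 by exact permutation, the smallest possible). The highest ratio, in SETβ overexpression replicate 1, rests on 10 gaps.

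Between backgrounds, SET KO libraries exceeded SET wild type libraries by 14.9 points, and the 2 sets did not overlap (lowest SET KO 6.55, highest SET wild type 1.35; exact permutation within isoforms, p = 0.0556, the lowest 36 arrangements allow; Benjamini-Hochberg p = 0.0972). As log2 ratios they did overlap: SET KO had a mean of 1.47 ± 0.140 and SET wild type one of 1.57 ± 0.972 (SD, n = 4 each), a difference of −0.0996 (exact permutation, p = 0.889). Addback lists were mostly longer. SETβ addback replicate 1, with 2518 peaks, was shorter than 3 of the 4 overexpression lists (2869, 4807 and 7675 peaks). It had a peak at 9.74% of gaps against their 1.90%, 1.04% and 1.96%. The part of list length in the difference was not tested, and as each group is a line of its own, line and background cannot be told apart. Summits in gap regions were 2.83% to 6.53% of the peaks of addback lists and 0.443% to 1.06% of those of overexpression lists. With equal numbers of strongest peaks from each library the difference was 4.92 points in place of 14.9 (exact permutation p = 0.0556, the lowest possible). The share of gaps with a peak was then 6.61% to 8.39% in addback and 0.490% to 0.919% in overexpression libraries.

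Over the addback libraries together, 822 gaps (50.3%) had a peak in at least 1 of 4 and 108 (6.61%) in all 4. Divergent gaps had one in at least 1 library in 374 of 468 cases (79.9%) and in all 4 in 58 (12.4%). For tandem gaps these shares were 54.5% and 4.66%, for single starts 40.9% and 3.28%, for convergent gaps 13.4% and 0%, and for single stops 2.87% and 0.0484%. Both SETα libraries had a peak at 386 gaps (23.6%) and both SETβ libraries at 120 (7.35%), against 15.8% and 3.99% of single starts. Both SETα and no SETβ library had one at 166 gaps, and both SETβ and no SETα library at 3, which are 10.2% and 0.184% of gaps. At single starts these patterns had similar shares, 8.20% and 0.198%. Replicates agreed unequally: of the gaps with a peak in SETβ addback replicate 2, 36.9% had one in replicate 1, whose list was the shortest of the addback lists, and in the other direction the share was 75.5%. For SETα addback it was 65.2% and 67.8%. At single starts the same shares were 30.0% and 61.0% for SETβ and 56.6% and 62.1% for SETα.

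Peaks at gaps were also stronger than peaks at single ends of the same list, when each list was ranked by the authors' −log10 p and then by fold. Each region with a peak was represented by its strongest peak. The median gap peak stood at 27.7% and 29.7% of the way down the SETα addback lists and at 33.5% and 30.9% down the SETβ addback lists. The median peak at a single end stood at 38.4%, 35.4%, 44.6% and 36.9%. In SETβ addback replicate 1, 37.7% of gap peaks had a −log10 q of at least 5, against 27.3% of peaks at single ends and 20.6% of its whole list. In the other addback libraries the share was 17.1% to 19.4% at gaps and 7.86% to 12.4% at single ends. These values describe peaks within a list and carry no test.

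Summits at divergent gaps were not confined to the gap. The gap is 13.0% to 13.4% of the divergent regions with a peak, and it held 10.3% and 12.7% of summits in SETα addback and 22.6% and 21.0% in SETβ addback. The median distance from the summit to the nearer start was 186 and 183 bp in SETα addback and 90.0 and 145 bp in SETβ addback. More than 1 peak lay in 20.6% and 21.6% of these regions with SETα, and in 1.19% and 7.41% with SETβ. At tandem gaps the summit lay nearer to the start than to the neighbour's stop in 72.8% and 78.4% of cases with SETα and in 92.9% and 75.0% with SETβ. At single starts 68.8% to 72.0% of summits lay downstream, inside the gene.

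**Figure D3:**
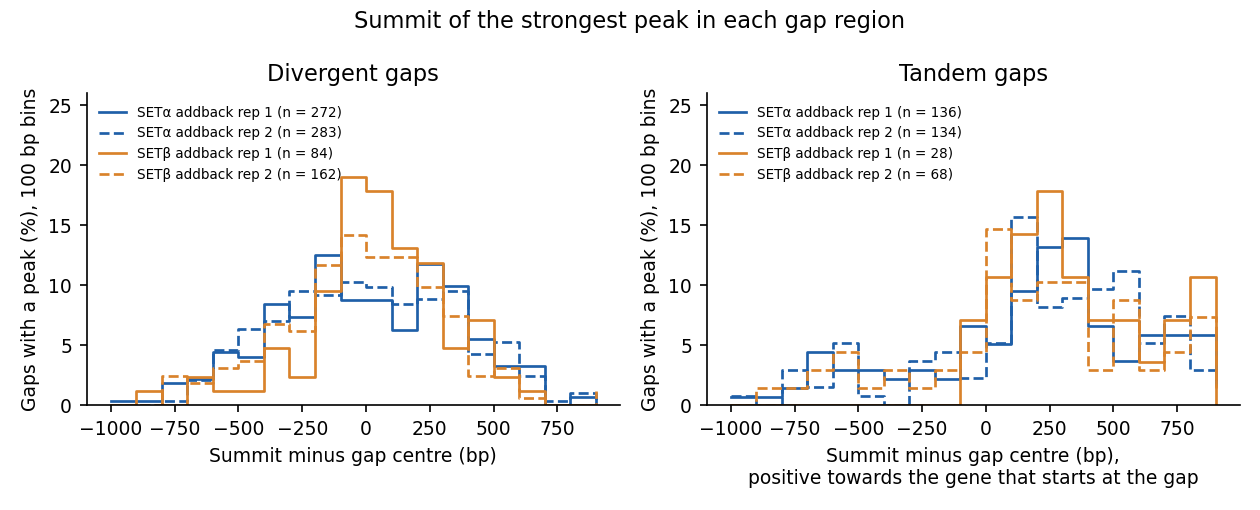
Position of the summit of the strongest peak relative to the centre of the gap (horizontal axis, bp) as percent of gaps with a peak in 100 bp bins (vertical axis), for divergent gaps (left) and tandem gaps (right), with 1 line per addback library. Divergent summits spread to both sides of the centre, and tandem summits lie mainly on the side of the gene that starts there, 72.8% to 92.9% of them nearer to the start.

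Start windows were searched on both strands for letters commonly described at such promoters. The letters for ETS factors were CCGGAAG and, in a second search, those for NF-Y were CCAAT. The letters for NRF1 were GCATGCGC and those for YY1 were AAGATGGCG. The element CTCGCGAGA was searched as such, and the TATA box was searched as TATAAA. None of these strings contains another. ETS letters were in 27.2% of divergent windows, 18.1% of tandem windows and 10.7% of single-start windows, and in 12.1% of the 14460 windows of all coding genes with a strand. YY1 letters were in 5.28%, 2.21%, 1.87% and 1.78% of the same sets, and NRF1 letters in 6.35%, 5.54%, 3.61% and 3.60%. CTCGCGAGA was in 3.84%, 1.11%, 0.685% and 0.934%. CCAAT was in 46.8%, 44.6%, 37.6% and 38.9%, and TATAAA in 5.40%, 10.3%, 11.5% and 13.6%. Divergent windows thus held each of the first 5 more often, and TATAAA less often, than all coding windows. These sets differed in CpG, as 89.2% of divergent and 48.9% of all coding windows reached a ratio of 0.6. Windows of CpG-rich single starts held NRF1 letters in 6.43% and TATAAA in 5.30% of cases, close to the divergent shares. They held ETS letters (17.5%), YY1 letters (3.52%) and CCAAT (37.1%), and also CTCGCGAGA, less often than divergent windows.

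ETS letters went with the number of addback libraries that had a peak. They were in 47.7% of divergent windows with a peak in all 4 addback libraries and in 18.2% of those without any, and at single starts in 38.8% and 4.97%. CpG-rich divergent gaps held them, in either window, in 22.0% of cases with no addback library, 29.1% with 1, 34.9% with 2, 41.9% with 3 and 56.5% with all 4. CpG-rich single starts, with a single window each, went from 11.4% with none to 17.6%, 17.1%, 19.1% and 41.1%. CpG-rich tandem gaps had 21.9%, 29.5%, 24.4%, 20.0% and 57.1%, the last over 14 gaps. CCAAT went from 61.0% with no library to 39.1% with all 4 at CpG-rich divergent gaps, and had no such course in the other classes. It was in 38.8%, 34.5%, 40.2%, 36% and 33.8% of CpG-rich single starts and in 34.4%, 29.5%, 60.0%, 33.3% and 42.9% of CpG-rich tandem gaps, with none to all 4 libraries. YY1 letters were in 15.3%, 8.14%, 6.98%, 4.65% and 4.35% of CpG-rich divergent gaps, 26 of 320 in all, but at single starts in 2.81% with none and 6.62% with all 4. NRF1 letters were in 10.2% of CpG-rich divergent gaps with none and 2.17% with all 4, though in 11.6% with 3, and at single starts in 5.61% and 8.61%. CTCGCGAGA and TATAAA were in 20 or fewer of the 320 divergent gaps. Divergent gaps were searched over 2 windows and single starts over 1, so the levels of both kinds are not comparable, only their course.

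**Figure D4:**
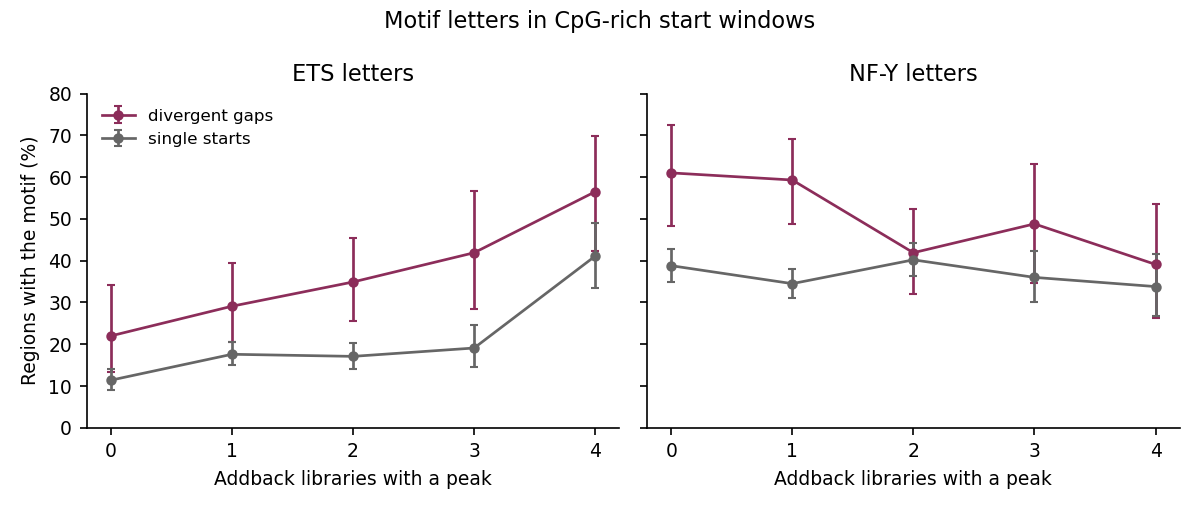
Percent of CpG-rich regions whose start windows hold the ETS letters (left) or the NF-Y letters (right) on the vertical axis, by the number of the 4 addback libraries with a peak (horizontal axis). Points are shares with Wilson 95% intervals of counting error; ETS letters at divergent gaps go from 22.0% to 56.5% and NF-Y letters from 61.0% to 39.1%.

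Where a summit of the addback IDR lists lay in a start window of a divergent gap, ETS letters were in that gap's windows in 15 of 22 cases with SETα and 15 of 23 with SETβ. The median distance from the summit to the nearest ETS match was 50.0 bp in both lists, and 8 of the 15 were within 50 bp in each. The distance to the nearest CCAAT match was 161 bp in both lists, over 11 and 9 gaps. At single starts the ETS distance was 38.0 and 39.5 bp and the CCAAT distance 91.0 and 41.0 bp. In the single libraries the ETS distance at divergent gaps was 63.5 and 95 bp with SETα and 57.0 and 61.0 bp with SETβ, against 128 and 95 bp and 121 and 103 bp for CCAAT. The distances were thus equal in SETα addback replicate 2 and close to each other at single starts of the SETβ IDR list. At tandem gaps of SETβ addback replicate 2 the order turned, with 61.0 bp for ETS and 34 bp for CCAAT over 11 and 10 gaps. At tandem gaps of the SETβ IDR list the distances were 44.0 and 43.0 bp, over 4 and 3 gaps. Both lists share many peaks, so they are not separate evidence of a distance.

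In the addback IDR lists, too, divergent gaps had the highest share, before tandem gaps and single starts. A SETα addback IDR peak was at 62 gaps (3.80%, Wilson 95% interval 2.97% to 4.84%) and a SETβ addback IDR peak at 63 (3.86%, 3.03% to 4.91%), against 0.865% of single ends in each list. Over all coding gene ends the shares were 1.40% and 1.31%. The lists had 52 gaps in common, 83.9% of the SETα gaps and 82.5% of the SETβ gaps. Gap regions held 11.5% of the SETα and 12.9% of the SETβ IDR summits on these chromosomes. Divergent gaps were in these lists in 6.20% and 6.41% of cases and single starts in 1.80% and 1.81%. Tandem gaps were in them in 3.01% and 3.29% of cases, and none of the 351 convergent gaps was (upper Wilson bound 1.08%), against 0.0161% and 0% of single stops. These lists combine the replicates, so the shares carry no replicate error.

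The 5 divergent gaps with the strongest IDR peaks were those whose windows are printed above, and mitochondrial ribosome genes stood at 3 of them. Gucd1/Snrpd3, the latter a core Sm protein of spliceosomal particles, is a 69 bp gap on chromosome 10 (75517973 to 75518041). Its peak had a −log10 p of 80.4 and 73.3 in SETα addback and 83.5 and 60.1 in SETβ addback, and 4.76 in SETβ overexpression replicate 2. Its 4 addback summits lay 35 to 56 bp inside Gucd1. At Mitd1/Mrpl30, a 27 bp gap on chromosome 1 (37890450 to 37890476) beside a gene of the large mitochondrial ribosomal subunit, the −log10 p was 58.4 and 60.8 with SETα and 95.3 and 60.8 with SETβ. All 4 summits lay within 8 bp of the Mrpl30 start and 60 to 66 bp from the ETS letters.

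Cops2/Galk2, a subunit of the COP9 signalosome beside a sugar kinase, is a 26 bp gap on chromosome 2 (125859083 to 125859108) with a −log10 p of 48.0 and 62.3 with SETα and 48.9 and 41.2 with SETβ. At Helq/Mrps18c, a DNA helicase gene beside one of the small mitochondrial ribosomal subunit, the gap spans 97 bp on chromosome 5 (100798662 to 100798758), with a −log10 p of 37.0 and 53.7 with SETα and 62.6 and 53.4 with SETβ. Ptcd2/Mrps27, which act in mitochondrial RNA handling and translation, have an 88 bp gap on chromosome 13 (99344679 to 99344766), with a −log10 p of 38.2 and 49.1 with SETα and 44.4 and 44.7 with SETβ. Its summits lay 34 to 71 bp from the ETS letters. None of these last 4 gaps had a peak in an overexpression library.

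**Figure D5:**
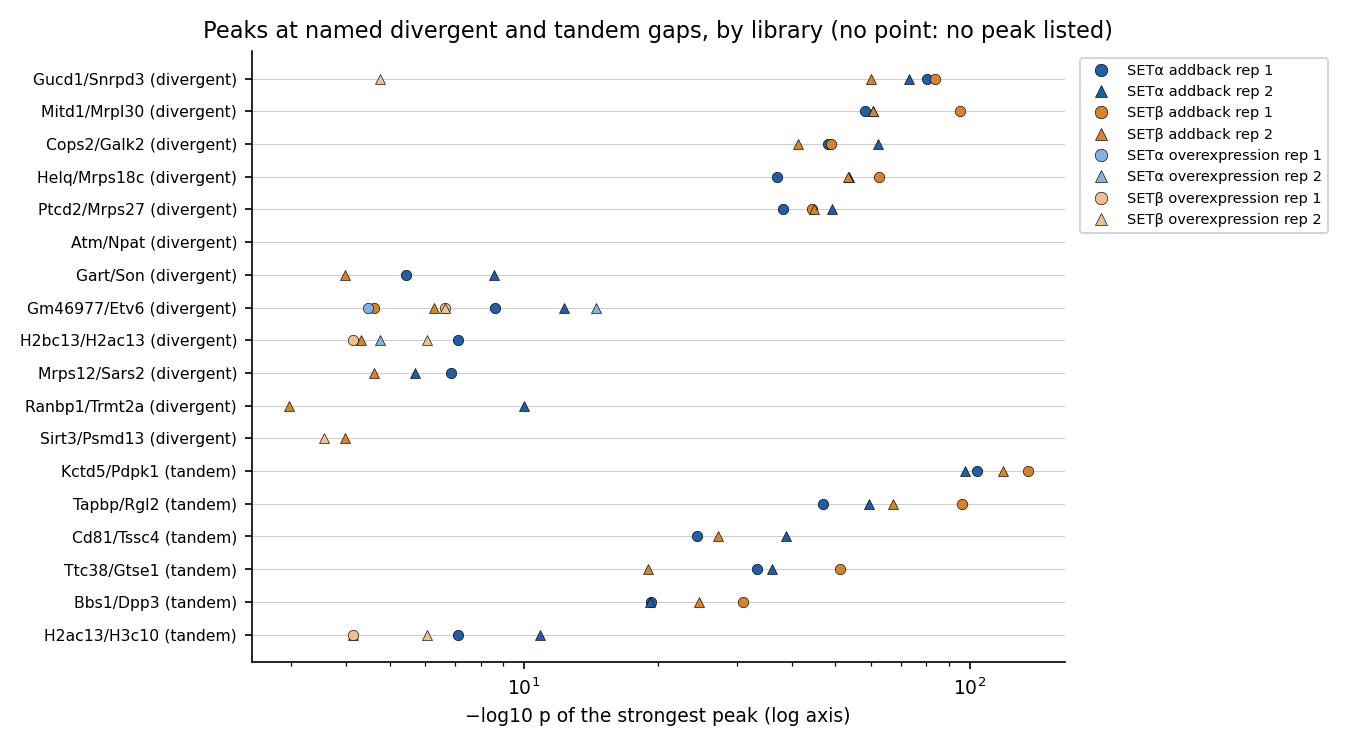
−log10 p of the strongest listed peak (horizontal axis, log scale) at named divergent and tandem gaps (rows), 1 point per library; no point means that no peak was listed. The strongest gaps of both orientations show addback points from 19.0 to 135, and the gaps named from textbooks or for their overexpression peaks stay at 14.5 or below.

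The strongest tandem gap was Kctd5/Pdpk1, where Pdpk1 encodes the kinase that activates AKT. This 194 bp gap on chromosome 17 (24073486 to 24073679) had a −log10 p of 104 and 97.5 in SETα addback and 135 and 119 in SETβ addback, and its peak ranked 6, 6, 5 and 2 in those lists. All 4 summits lay in the gap, 28 to 81 bp before the Kctd5 start. At Tapbp/Rgl2, beside the antigen-loading chaperone tapasin, the −log10 p was 46.8 and 59.4 with SETα and 96.1 and 67.4 with SETβ, and all 4 summits again lay in the gap. Ttc38/Gtse1 had 33.4 and 36.1 with SETα and 51.1 and 19.0 with SETβ, and its summits lay 124 to 151 bp before the start of Gtse1, a cell-cycle gene. Bbs1/Dpp3, beside a gene of the ciliary BBSome, had 19.3, 19.2, 31.0 and 24.7 in the same order. Cd81/Tssc4 had peaks in 3 addback libraries (24.5 and 38.7 with SETα, 27.2 in SETβ replicate 2), but their summits lay 824 to 925 bp beyond the gap, inside Tssc4 and outside the region.

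Among the strongest gaps of unknown orientation, Card6/Rpl37, beside a ribosomal protein gene, had a −log10 p of 57.1 and 56.5 with SETα and 90.2 and 84.0 with SETβ. Zfp668/Zfp646, a pair of zinc-finger genes, had 57.1, 58.0, 83.8 and 82.7. Ndufs1/Eef1b2, a complex I subunit beside a translation elongation factor, had 58.4, 49.5, 86.8 and 50.9. The longest gap with both IDR peaks was the tandem gap Madcam1/Tpgs1 at 896 bp, with 9.22 and 9.09 with SETα and 9.14 and 15.8 with SETβ. Only 1 of these 4 addback summits lay inside its region, and the others lay further into Tpgs1.

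The strongest gaps with peaks in both replicates of a single isoform were picked from 166 with SETα and were all 3 with SETβ. With SETα only, P3h3/Gpr162 had a −log10 p of 14.0 and 14.8, Iffo1/Gapdh, beside the glycolytic enzyme gene, 12.1 and 11.4, and B3galt4/Rps18 21.7 and 6.10. Iffo1/Gapdh also had 4.16 and 6.43 in SETα overexpression. P3h3/Gpr162 and Iffo1/Gapdh both lie on chromosome 6, where the SETα overexpression peaks clustered, and only 1 of the 2 addback summits lay inside the region at each. At B3galt4/Rps18 the summit of the stronger peak also lay outside. With SETβ only, Pdcd10/Serpini1 had 5.31 and 5.96, Rps6kb2/Carns1 5.05 and 4.61, and Pfdn6/Wdr46, the former a prefoldin subunit, 4.43 and 3.39.

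Of 12 divergent pairs often cited in textbooks and reviews, 6 met the rule. Among those that did not, Hspd1/Hspe1, Surf1/Surf2, Paics/Ppat and Hars/Hars2 overlapped in this annotation, and Psmb1/Tbp lay 1611 bp apart. None of the 6 was in an IDR list, and of all divergent gaps only 6.20% and 6.41% were in the SETα and SETβ addback IDR lists. Atm/Npat, a 60 bp gap between the DNA-damage kinase and a coactivator of histone genes, had no peak in any library, and its window had a CpG ratio of 0.957 and the letters for ETS, NF-Y, NRF1 and the TATA box. Gart/Son, a purine synthesis gene beside a splicing cofactor gene, had a −log10 p of 5.44 and 8.58 with SETα and 3.98 in SETβ addback replicate 2, whose summit lay outside the region. Mcm4/Prkdc, a replicative helicase subunit beside the kinase of end joining, had 4.77, 4.60 and 4.61 in those 3 libraries. Mrps12/Sars2, 2 genes of mitochondrial translation, had 6.88, 5.70 and 4.61. Ranbp1/Trmt2a had 10.0 in SETα addback replicate 2 and 2.97 in SETβ addback replicate 2. Sirt3/Psmd13, a mitochondrial deacetylase beside a proteasome subunit, had 3.98 in SETβ addback replicate 2 and 3.56 in SETβ overexpression replicate 2, and the addback summit lay outside the region. No peak of these 6 gaps was listed in SETβ addback replicate 1, which had a peak at 17.9% of all divergent gaps.

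Gene families were unequal in how many members lay at short gaps. Over all coding genes the share was 16.5%. It was 56.8% of the Nduf genes of mitochondrial complex I (25 of 44), 40.0% of Mrpl and Mrps genes of the mitochondrial ribosome (26 of 65), 32.4% of Psm proteasome genes (12 of 37) and 27.5% of Rpl and Rps genes of the cytosolic ribosome (22 of 80). It was 11.7% of Zfp genes (40 of 342) and 0.492% of Olfr genes, the olfactory receptors (5 of 1016). At least 1 addback library had a peak at 63.3% of the 30 gaps with an Mrpl or Mrps gene, 53.8% of the 26 with an Nduf gene, 60.0% of the 15 with a Psm gene, 70.0% of the 30 with an Rpl or Rps gene and 52.8% of the 36 with a Zfp gene, against 50.3% of all gaps and 79.9% of divergent gaps. Divergent gaps were 15 of the 30 Mrpl or Mrps gaps, 14 of the 26 Nduf gaps, 5 of the 15 Psm gaps, 8 of the 30 Rpl or Rps gaps and 11 of the 36 Zfp gaps, against 468 of all 1633. In the SETα and SETβ addback IDR lists were 5 and 6 Mrpl or Mrps gaps, 4 and 4 Nduf gaps, 4 and 4 Zfp gaps, 1 and 2 Rpl or Rps gaps and 1 and 1 Psm gaps, where 3.80% and 3.86% of all gaps were in these lists. No family was tested against the other gaps. Ribosomal protein genes have many processed copies elsewhere in the genome, and how reads from such copies were placed is not given in the sources used here.

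Overexpression peaks fell at 60 gaps, 49 of which also had an addback peak, where 50.3% of all gaps had one. At single starts 112 of 159 with an overexpression peak also had an addback peak, where 40.9% of all had one. Those of SETα overexpression clustered on chromosome 6: all 17 gaps of replicate 1 lay there, between 120.2 and 134.0 Mb. Those 17 gaps set the bounds of this segment, which holds 23 short gaps in all, and 20 of the 32 gaps of replicate 2 lay within it. With SETβ overexpression 1 of 10 and 2 of 31 gaps lay there. Single ends were alike in this: without chromosome 6 the share with a peak went from 0.624% to 0.00698% in SETα overexpression replicate 1 and from 1.05% to 0.265% in replicate 2. Without chromosome 6 the mean difference between divergent gaps and 2 independent starts was 5.50 points, with an exact sign-flip permutation p of 0.0312 in place of 0.0703. The overexpression IDR lists reached 2 gaps with SETα, Ninj2/B4galnt3 and Gnb3/P3h3, and 1 with SETβ, Gm46977/Etv6, all on chromosome 6. Over all coding gene ends the shares in these lists were 0.0333% and 0.0139%.

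Gm46977/Etv6, beside the gene of an ETS-family repressor, was the only gap with a peak in all 8 libraries. Its −log10 p was 4.48 and 14.5 in SETα overexpression, 6.66 and 6.66 in SETβ overexpression, 8.63 and 12.3 in SETα addback and 4.61 and 6.29 in SETβ addback. The summit of SETα overexpression replicate 1 lay 2044 bp from the gap, outside the region. The histone gaps H2bc13/H2ac13 and H2ac13/H3c10 share the gene H2ac13, and some of their peaks are the same peak. Both had a −log10 p of 4.14 and 6.07 in SETβ overexpression, and had 4.76 and 4.14, respectively, in SETα overexpression replicate 2. Usp5/Cdca3, a deubiquitinase beside a mitotic gene in the chromosome 6 segment, had 11.2 in SETα overexpression replicate 2 and 4.54 in SETβ overexpression replicate 2, beside 5.75 and 8.28 in SETα addback and 8.52 in SETβ addback replicate 2.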

How the data were processed

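HA ChIP-seq peak lists of 8 libraries and 4 lists by group were used. The submitters' processing notes name Bowtie2, MACS2 and deepTools and the builds GRCm38 and mm10, with no versions or roles; the control and any exclusion list are not given in the sources used here. In the deposited library lists the score, the fold enrichment (a linear ratio), the −log10 p and the −log10 q are the authors' values per peak, and the highest p in any list was 0.00499. The 4 deposited IDR lists combine both replicates, with a score, a merged −log10 p and a −log10 IDR per peak by the authors. Read depth is not given by these files. The number of peaks per library is given, but it need not follow depth, so equal numbers of peaks do not mean equal depth.

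Gaps were built from the RefSeq gene table, which includes predicted genes, and strand came from the RefSeq promoter table (80.3% of 18010 coding genes, none on chromosome 18). A region had a peak where at least 1 bp overlapped. Libraries were the units of every test: exact two-sided sign-flip tests over 8 libraries (256 arrangements), and exact permutations of labels within isoform or background (36 arrangements), with Benjamini-Hochberg adjustment over 7 tests. Nothing in the labels says that replicates are separate cultures, so p-values measure only the spread between these libraries. A motif or CpG value belongs to the RefSeq promoter window whose start lay within 250 bp of the gene end. A gap without a matched window was left out of those values. For divergent gaps, the CpG classes and the motif shares of CpG-rich gaps needed both windows, which 370 gaps had. The medians and shares over start windows used all 834 matched windows, also where only 1 window of a gap was matched. In the replicate pairing check, same-numbered replicates deviated together with r from −0.0104 to 0.0875 over gaps. The overlap code was tested on simulated peak lists. Python 3.11.15, pandas 2.3.3, numpy 2.4.6 and scipy 1.17.1 were used.

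Gaps were named by a fixed rule: the 5 strongest in the addback IDR lists within each orientation, the 4 with most overexpression libraries, the 3 strongest of each isoform alone, textbook divergent pairs, and the shortest and longest with both IDR peaks. Some gaps that the rule names are not reported here. The members, lists and tests were chosen with earlier results of these data known. Alternatives covered peak thresholds, equal numbers of peaks, summit in place of overlap, flank, gap limit, gene types, chromosome 6 and each library left out.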

Additional observations from a re-analysis of the deposited data

Results flagged for a closer look

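In 3 comparisons, differences between groups had opposite signs in every library of each group and were not tested. The excess of convergent gaps over single stops averaged 5.05 points in SETα addback and −0.113 in SETα overexpression, a difference of 5.17. The excess of divergent gaps over 2 independent starts averaged 13.2 points in SETα addback and −1.04 in SETα overexpression, a difference of 14.2. The same excess averaged −1.04 points in SETα overexpression and 0.914 in SETβ overexpression, a difference of −1.95.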

How the results depend on the processing

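With peaks of −log10 q of at least 5 the mean excess was 2.01 points for all gaps, 3.39 for divergent and 0.762 for tandem gaps, and no longer passed the test; 3 libraries then had no such peak at any region, which limits the p. The tandem excess also fell short with q of at most 0.05 (2.70), with equal numbers of strongest peaks (1.11) and with gaps of at most 500 bp (3.83), where the convergent excess passed at 1.59. Divergent gaps against 2 independent starts passed with q of at most 0.05 (4.73), with equal numbers of peaks (3.16), without chromosome 6 (5.50) and without SETα overexpression replicate 2 (6.07), and reversed to −5.07 among CpG-rich starts, a setting planned for divergent gaps against single starts and added to this result after the data were seen. On the log2 ratio scale, also added later, the background difference reversed to −0.0996 and the isoform difference to −0.863; the causes were not tested. Leaving out each library in turn gave 6.36 to 9.39 points for all gaps, 9.46 to 14.5 for divergent, 2.46 to 4.07 for tandem and 0.778 to 1.81 for convergent gaps, 3.56 to 6.07 against 2 independent starts, 13.3 to 16.6 between backgrounds and 4.12 to 7.41 between isoforms. In the replicate pairing check r was −0.0104 to 0.0875 over gaps. That check cannot show a shift in peak number shared by same-numbered libraries, so it does not settle whether replicate numbers pair the libraries. With the replicate block the background difference was 14.9 (exact permutation p = 0.125, the smallest possible) and the isoform difference 5.76 (exact permutation p = 0.500). The 62 and 63 gaps in the addback IDR lists stayed within 1.5 times under all 9 alternatives run on those lists. The 2 SETα overexpression IDR gaps became 1 with gaps of at most 500 bp, 0 without chromosome 6 and 1 with an IDR of at most 0.01, and the single SETβ gap became 0 by summit, without Gm and Rik genes, without chromosome 6 and at that IDR. The number of peaks per list, which differs more than 10-fold between libraries, limits every share.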
